A study of Caenorhabditis elegans with 4 samples.

Results

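The sites described here are the broad sites of the transcription factor NHR-11 in Caenorhabditis elegans, the stretches of 1000 bp or more to which chromatin immunoprecipitation (ChIP) assigned the protein. They were chosen by their width in the series-level list of sites, and 435 of its 6799 sites (6.40%, 95% interval 5.83 to 7.01) met that rule. The worms were hermaphrodites of strain OP305 at L4, the last larval stage, grown at 20 °C. All samples share 1 genotype, with the mutation unc119(ed3) and the transgene wgIs305, in which nhr-11 is joined to TY1, EGFP and FLAG and which carries unc119 as well. Per the labels, the transgene was brought in by bombardment and the strain was outcrossed 3 times. The labels do not say that the worms' own nhr-11 was removed. There were 2 ChIP libraries, made with antibodies against GFP, and 2 input libraries of total chromatin DNA, which have no list of sites here. Separate cultures are not stated for the replicates, so the spread between them may be technical. No list from worms without the tag was used here, so regions that are enriched in any such ChIP cannot be told apart from sites of NHR-11.

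NHR-11 is a nuclear hormone receptor. Proteins of this family bind short DNA elements through a zinc finger domain, many of them respond to small lipid-like ligands, and the worm has an unusually large number of them. In ChIP followed by sequencing, a listed site is the stretch over which sheared fragments pile up, so it is wider than the bound element, and a broad site may hold 1 element or several. Sites are given by their coordinates in build WS220 of the worm genome. The genes at these positions were not analysed here.

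The authors deposited 3 lists, with 2612 sites for replicate 1, 2834 for replicate 2 and 6799 in the list of the whole series, called the series-level list here. The series-level list comes from the same 2 ChIP libraries as the replicate lists, so a replicate list is no independent check of a site's width. Strength below is the −log10 of the authors' significance value for a site, used here to rank sites within a list. Whether the lists share a scale is not known. Whether the chromosomes share a scale within the series-level list is not known either, and rankings and classes by strength below take them together. Read depth is unknown. Shares carry exact Clopper-Pearson 95% intervals and medians carry 95% intervals from ranks, both of which treat sites as independent and cover counting error only. Broad and narrower sites are set side by side as a description, with no test.

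Broad sites were few but took up much of the listed sequence. They made up 24.6% of all bases in the series-level list. Their median width was 1373 bp (1323 to 1439), with the middle 50% of them between 1125 and 1814.5 bp, against a median of 337 bp in sites under 1000 bp. Of the 435, 89 were 2000 bp or wider and 17 were 4000 bp or wider. The replicate lists held such sites in similar proportion. Replicate 1 had 192 sites of 1000 bp or more (7.35%, 6.38 to 8.42), which covered 23.7% of its bases. Replicate 2 had 199 (7.02%, 6.11 to 8.03), which covered 22.5% of its bases. The rule cuts through a continuous range of widths. The 3 narrowest broad sites were 1000, 1002 and 1004 bp wide, on V (14003815 to 14004814), I (8305059 to 8306060) and V (11887728 to 11888731), with series-level strengths of 8.76, 33.8 and 16.3. The 3 widest sites outside the rule were 997, 996 and 995 bp wide, on X (10394033 to 10395029), V (13085839 to 13086834) and V (14831501 to 14832495), with strengths of 10.8, 19.7 and 8.67.

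**Figure D1:**
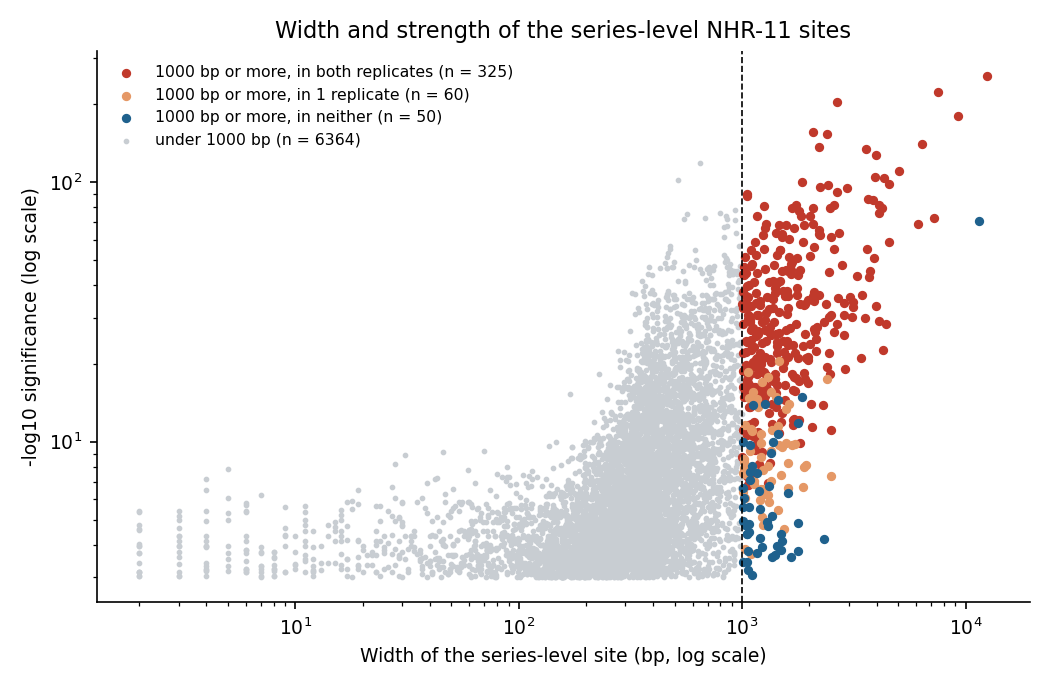
Width in bp (x axis, log scale) against −log10 significance (y axis, log scale) of every series-level site, 1 point a site. Coloured points right of the dashed line at 1000 bp are the 435 broad sites, by whether both, 1 or neither of the replicate lists hold a site there, and grey points are the 6364 narrower sites. The broad sites in neither list lie low, except 1 of 11525 bp with a strength of 70.8.

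Most broad sites were present in both replicate lists. A site was counted as found where a replicate site overlapped it by at least 1 bp. Of the 435 broad sites, 325 were found in both replicates (74.7%, 70.4 to 78.7), compared with 29.3% of all series-level sites and with 1667 of the 6364 sites under 1000 bp (26.2%, 25.1 to 27.3). A further 60 broad sites (13.8%) were found in 1 replicate and 50 (11.5%, 8.65 to 14.9) in neither, against 3428 of the narrower sites (53.9%) in neither. Replicate 1 held 352 of the broad sites and replicate 2 held 358. The share found in both was higher in the wider classes. It was 65.7% of the 169 sites from 1000 to under 1250 bp, 66.7% of the 87 from 1250 to under 1500 bp, 78.9% of the 90 from 1500 to under 2000 bp, 95.8% of the 72 from 2000 to under 4000 bp and 94.1% of the 17 from 4000 bp up.

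At like strength, the share found in both replicates differed little between broad and narrower sites. Below 5 and from 20 up, no or nearly all sites of either kind were in both. A difference could thus show only from 5 to under 20. Strength and presence in the replicates come from the same libraries. Among sites with a series-level strength from 3 to under 5, 0 of 30 broad sites and 0 of 2684 narrower sites were in both replicates. Counting error alone allows a share of up to 11.6% for the broad sites, by the exact upper bound. From 5 to under 10 the share was 21.7% of 69 broad sites (12.7 to 33.3) and 17.04% of 2224 narrower sites (15.5 to 18.7). From 10 to under 20 it was 76.9% of 104 broad sites (67.6 to 84.6) and 83.2% of 1001 narrower sites (80.8 to 85.5). In all these classes the intervals for this share overlapped. From 20 to under 40, 129 of 130 broad sites and all 383 narrower sites were in both, and at 40 and above 101 of 102 broad sites and all 72 narrower sites were. The share found in neither did differ, in opposite directions. From 5 to under 10 it was 24.6% of broad sites (15.1 to 36.5) and 40.2% of narrower sites (38.2 to 42.3), and from 10 to under 20 it was 5.77% of broad sites (2.15 to 12.1) and 1.20% of narrower sites (0.621 to 2.08). The 5.77% stands for 6 broad sites, all on chromosome I or IV. No broad site on IV had a strength below 10.7, so the class from 5 to under 10 held none from IV. Broad and narrower sites of like strength thus differ in their chromosomes, which these shares do not take into account. The 50 broad sites in neither replicate had a median strength of 4.94, those in 1 replicate 8.32 and those in both 28.9.

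A broad site was usually a single site in each replicate, but far from always. In replicate 1, 310 broad sites held 1 site, 35 held 2 and 7 held 3. In replicate 2, 312 held 1 site, 41 held 2, 4 held 3 and 1 held 4. Of the 325 broad sites found in both, 262 (80.6%, 75.9 to 84.8) were 1 site in each list. The other 63 (19.4%, 15.2 to 24.1) were split into several in at least 1 list, and 24 of these (7.38% of the 325) were split in both. Of the 1667 narrower sites found in both, 1 was split. Neighbouring sites lay at least 210 bp apart in replicate 1 and 201 bp in replicate 2. A narrow site thus has little room for 2 pieces, and the room grows with width. Neither this contrast nor the rise with width below can therefore be read as a trait of broad sites. Splitting was concentrated in the wider sites. It was seen in 6 of 111 sites from 1000 to under 1250 bp (5.41%), 4 of 58 from 1250 to under 1500 bp (6.90%), 10 of 71 from 1500 to under 2000 bp (14.1%), 33 of 69 from 2000 to under 4000 bp (47.8%, 35.6 to 60.2) and 10 of 16 from 4000 bp up (62.5%, 35.4 to 84.8).

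The stretches between the pieces were short. Replicate 1 left 49 such gaps inside broad sites, with a median length of 303 bp, and replicate 2 left 52, with a median of 270 bp. The gaps coincided in part. Of the replicate 1 gaps, 22 (44.9%, 30.7 to 59.8) overlapped a gap of replicate 2, and 19 (38.8%, 25.2 to 53.8) were covered by replicate 2 sites from end to end. Of the replicate 2 gaps, 22 (42.3%, 28.7 to 56.8) overlapped a gap of replicate 1, and 21 (40.4%, 27.0 to 54.9) were covered in full by replicate 1 sites. Neighbouring sites within a replicate list were never closer than 210 bp in replicate 1 and 201 bp in replicate 2.

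The widest sites show the range of these patterns. The widest, on II at 10541878 to 10554402, was 12525 bp in the series-level list, 1 site of 12480 bp in replicate 1 and 1 site of 12241 bp in replicate 2, so 97.7% of its width was covered by both. The next, on IV at 9067439 to 9078963, was 11525 bp wide and had no site in either replicate. The third, on V at 6220819 to 6230074, was 9256 bp wide and fell into 3 sites in replicate 1 and 2 in replicate 2, which together left 75.2% of it covered by both. The first of these is 1 continuous stretch in all 3 lists and the third has at least 1 break in each replicate.

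The 7 sites next in width also differed among themselves. On I at 7078686 to 7086188 (7503 bp), replicate 1 had 1 site of 6246 bp, and replicate 2 had 1 of 6543 bp and a weak second one of 584 bp with a strength of 5.18. On IV at 9049854 to 9057093 (7240 bp), each replicate had 1 site, of 7066 bp in replicate 1 and 7226 bp in replicate 2. On II at 8741853 to 8748223 (6371 bp), replicate 1 had 2 sites and replicate 2 had 3. The last of these sites was thus divided in each list, at points that did not all coincide. On II at 5333727 to 5339858 (6132 bp), both replicates had 3 sites, the strongest of them with 10.6 in replicate 1 and 20.0 in replicate 2. On X at 4141927 to 4146940 (5014 bp), both had 2 sites that covered nearly the same bases, with 63.7% of the width covered by both and 67.4% by either. On X at 6740232 to 6744761 (4530 bp), each had 1 site, and 90.3% of the width was covered by both. On V at 723825 to 728347 (4523 bp), replicate 1 had 1 site of 4451 bp and replicate 2 had sites of 2246 and 1952 bp. Of these 7 sites, those on IV at 9049854 and on X at 6740232 were 1 site in both replicates, and the other 5 were interrupted in at least 1 list.

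**Figure D2:**
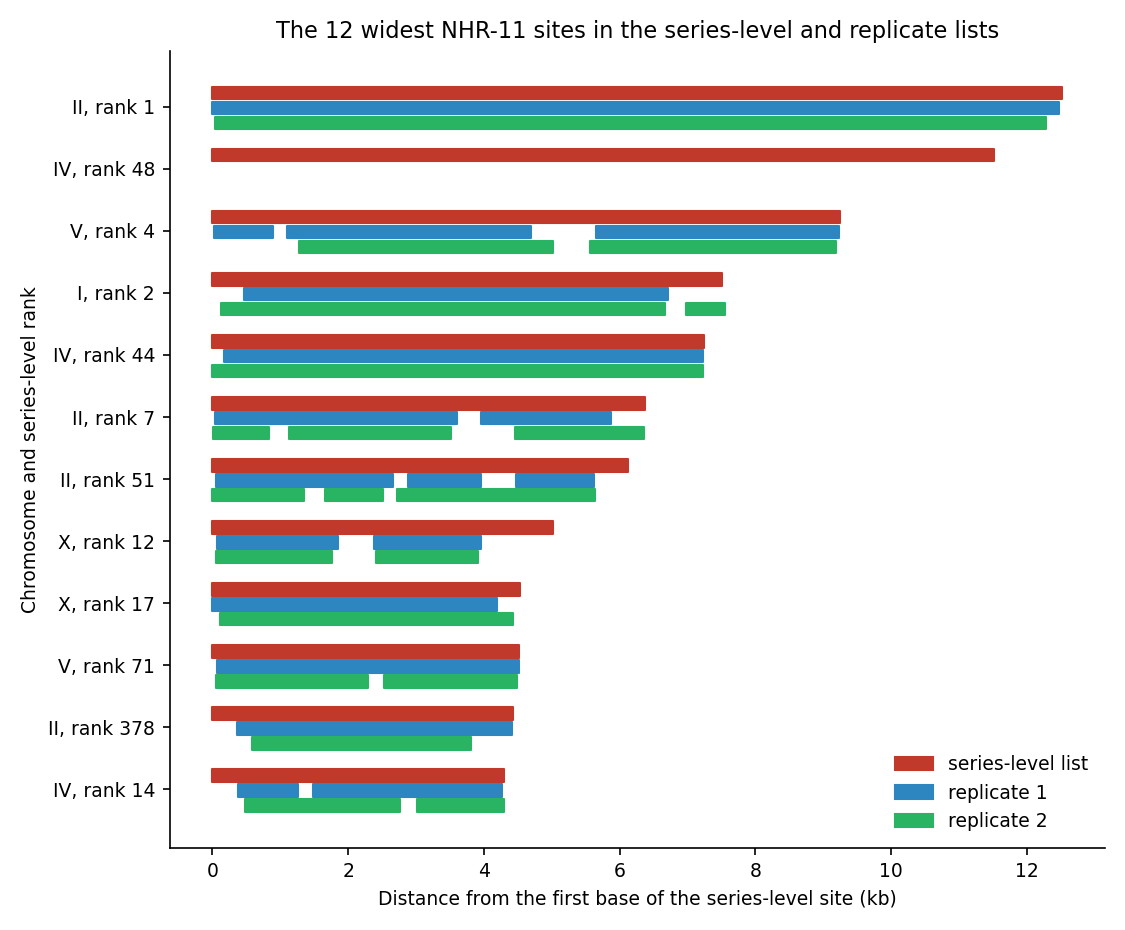
The 12 widest sites of the series-level list (red), with the sites of replicate 1 (blue) and replicate 2 (green) that overlap them, drawn by distance in kb from the first base of the series-level site and labelled by chromosome and rank in the series-level list. The widest is 1 bar in every list, the second has no bar in either replicate, and most of the others are broken in at least 1 replicate.

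The site with the most pieces lay on I at 12549256 to 12553106 and was 3851 bp wide. Replicate 1 had 3 sites there, of 895, 985 and 839 bp, with strengths of 7.38, 14.4 and 10.7. Replicate 2 had 4, of 1138, 988, 357 and 319 bp, with strengths of 9.48, 9.23, 3.18 and 3.25. The strongest of these ranked 274 among the 2612 sites of replicate 1 and 606 among the 2834 of replicate 2. The series-level site had a strength of 85.3, which may not share a scale with the replicate values, and 50.8% of its width was covered by both. By number of pieces in either list, then by their sum and by width, the sites on II at 5333727, V at 6220819, II at 8741853 and V at 20772013 to 20776242 came next. The last of these was 4230 bp wide, with 3 sites in replicate 1 and 2 in replicate 2, and 74.3% of it was covered by both.

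The width itself repeated less fully than the presence of a site, which needed an overlap of 1 bp alone. The choice by series-level width by itself lowers the share of a broad site's width that replicate sites cover. Lower coverage than in narrower sites can therefore not be read as a trait of broad sites. Replicate 1 sites covered a median of 69.5% (64.0 to 75.0) of a broad site's width and replicate 2 sites covered 67.0% (62.6 to 73.9). Bases covered by both made up a median of 51.5% (43.9 to 55.8), and bases covered by either made up 86.7%. Of the 435 broad sites, 223 (51.3%, 46.5 to 56.1) had at least 50% of their width covered by both, and 37 (8.51%, 6.06 to 11.5) had at least 90%. Among sites found in both replicates, the median covered by both was 65.3% (60.4 to 68.0) in the 325 broad sites, compared with 78.3% (77.1 to 79.1) in the 1667 narrower sites. Over all sites of like strength, with those that have no base covered by both counted as 0, the median was 0 in both classes from 3 to under 5 and from 5 to under 10. From 10 to under 20 the median was 41.9% in broad and 73.5% in narrower sites, from 20 to under 40 it was 59.6% and 82.6%, and at 40 and above it was 75.1% and 84.3%. From 10 to under 20, 80 of the 104 broad and 833 of the 1001 narrower sites in these medians were found in both.

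Many broad sites held no replicate site of 1000 bp or more. They were chosen by series-level width, and such a choice by itself gives lower widths in the other lists. A single replicate site of 1000 bp or more lay in the broad site in both replicates for 124 of the 435 (28.5%, 24.3 to 33.0), and in neither replicate for 192 (44.1%, 39.4 to 48.9). The replicate sites that lay in broad sites numbered 401 in replicate 1 and 410 in replicate 2, with median widths of 979 and 984.5 bp. In 3 broad sites both replicates had a site but the sites shared no base. These lay on III (10811241 to 10812956) and on X (4137452 to 4140352 and 5027535 to 5028577), and none of the replicate sites in them had a strength above 4.25.

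**Figure D3:**
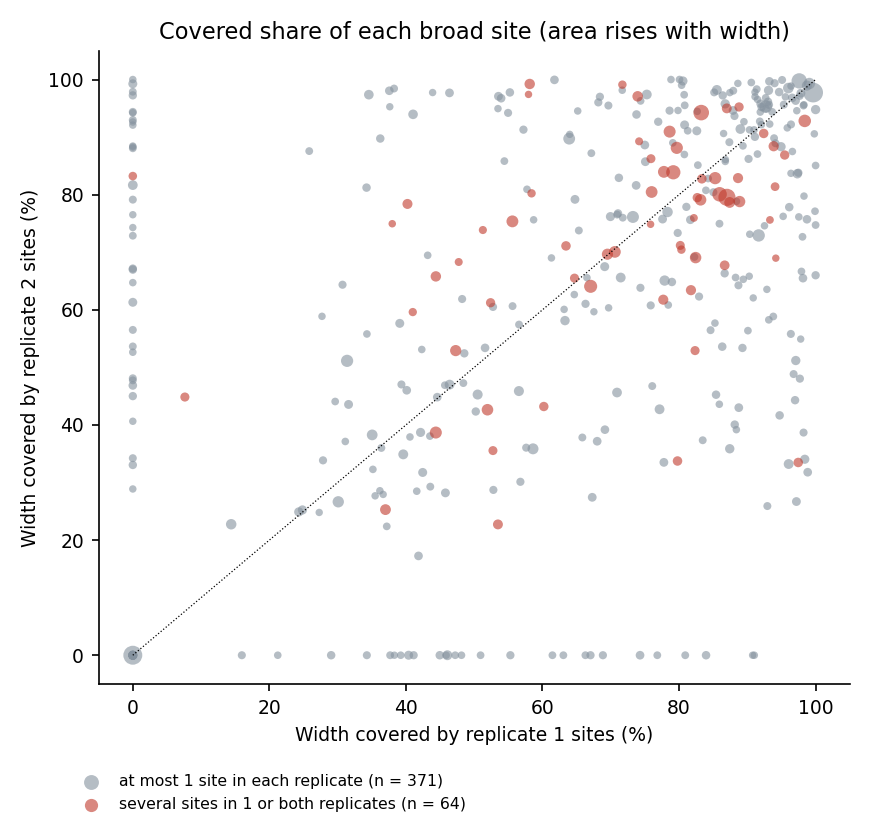
Share of each broad site's width covered by replicate 1 sites (x axis, %) and by replicate 2 sites (y axis, %), 1 point a site, with the point's area growing with the width and the dotted line marking equal shares. Points on the axes are sites missing from 1 replicate, the point at the origin stands for the 50 in neither. Sites split into several in 1 or both replicates are red, the 63 found in both and 1 that replicate 1 lacks.

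Where a broad site was 1 site in each replicate, the edges were looser than those of narrower sites. Of the 262 such broad sites, 89 (33.97%, 28.3 to 40.1) had both edges within 100 bp of each other between the replicates, against 1259 of 1666 narrower sites (75.6%, 73.4 to 77.6). A further 128 broad sites (48.9%, 42.7 to 55.1) agreed at exactly 1 edge, against 372 narrower sites (22.3%). The median distance between the replicates' edges was 70.5 bp in broad and 31 bp in narrower sites. A fixed tolerance in bp asks more of a wide site than of a narrow one. As a proportion of width the classes were closer, and the smaller of the replicate widths was a median of 0.84 of the larger in broad sites and 0.88 in narrower ones. The replicate site was a median of 0.81 of the series-level width in replicate 1 and 0.77 in replicate 2 for broad sites, against 0.86 and 0.88 for narrower ones. The choice by series-level width by itself lowers these values in broad sites. Across the 262 broad sites, Spearman's rho between the widths in replicates 1 and 2 was 0.54, and it was 0.76 across the 1666 narrower sites. Both values are descriptions across sites, which differ in their range of widths.

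Choosing broad sites in 1 replicate and reading the other avoids using the series-level width. Of the 192 sites of 1000 bp or more in replicate 1, 188 (97.9%) overlapped a site of replicate 2, against 75.8% of the 2420 narrower ones. In 130 of them (67.7%, 60.6 to 74.3) a replicate 2 site was itself 1000 bp or more, compared with 70 of the narrower sites (2.89%, 2.26 to 3.64). In the other direction, 185 of the 199 broad sites of replicate 2 (93.0%) overlapped a site of replicate 1, against 69.8% of the 2635 narrower ones, and in 133 (66.8%, 59.8 to 73.3) a replicate 1 site was 1000 bp or more, compared with 72 of the narrower ones (2.73%, 2.14 to 3.43). Of sites chosen at 2000 bp or more, 30 of 33 from replicate 1 and 32 of 35 from replicate 2 were at least 1000 bp in the other replicate. The widest overlapping site in the other replicate had a median of 1222.5 bp for the 188 chosen in replicate 1 and found in replicate 2, whose own median was 1355.5 bp. It was 1264 bp for the 185 chosen in replicate 2 and found in replicate 1, whose own median was 1333 bp. Sites chosen as broad in 1 replicate were thus mostly broad in the other. Their lower median there is no finding, since a choice by width in 1 list alone gives a lower width in the other. They were also stronger there, with a median strength of 14.0 in replicate 2 against 6.25 for the narrower sites chosen in replicate 1, and of 15.4 in replicate 1 against 5.996 for the narrower sites chosen in replicate 2.

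Broad sites were stronger than narrower ones in total but not per unit of width. The median series-level strength was 21.2 (19.3 to 24.2) in broad sites and 5.64 (5.53 to 5.78) in narrower sites. Divided by width, it was 13.5 per kb (12.5 to 15.5) in broad sites and 21.0 per kb (20.6 to 21.3) in narrower ones. These medians pool the chromosomes, and the median per kb was lower in broad sites on each of them. The gap was small on I (21.1 in broad and 23.3 in narrower sites) and IV (24.3 and 25.8). It was wider on II (12.3 and 19.7), III (10.97 and 18.05), V (9.34 and 17.6) and X (12.49 and 16.9). Division by width lowers a wide site by construction, and the file gives no height or summit to set in its place. The replicate lists gave the same order. In replicate 1 the medians were 13.4 in broad and 4.85 in narrower sites, or 8.78 and 14.6 per kb. In replicate 2 they were 13.9 in broad and 4.96 in narrower sites, or 8.999 and 14.5 per kb. Within the broad sites, the strength per kb hardly varied with width below 4000 bp, with medians of 13.8, 12.9, 13.3 and 13.2 from the narrowest class up, and was 18.7 in the 17 sites of 4000 bp or more. Spearman's rho between width and strength across broad sites was 0.44 in the series-level list, 0.44 in replicate 1 and 0.46 in replicate 2.

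The strongest broad sites varied in width. The 5 with the highest strength per kb were 1053 to 2660 bp wide. On III at 4281691 to 4282743 the series-level site was 1053 bp wide with 85.4 per kb, and its strength was 89.98 in the series-level list, 50.5 in replicate 1 and 46.7 in replicate 2. On X at 8035879 to 8036931, also 1053 bp, it was 83.6 per kb, with strengths of 88.1, 43.5 and 54.7 in the same order of lists. The next were on X at 16929321 to 16931980 with 76.7 per kb, on IV at 14032616 to 14034689 with 75.0 per kb and on II at 5543294 to 5544545 with 64.7 per kb. Each of the 5 was 1 site in each replicate, with at least 82.4% of its width covered by both. By total strength the first was the 12525 bp site on II with 257, at 20.5 per kb. After it came the sites on I at 7078686 (223), X at 16929321 (204), V at 6220819 (179), IV at 14032616 (156), I at 9379703 to 9382098 (153), II at 8741853 (141), X at 1503018 to 1505223 (136), IV at 10933721 to 10937296 (135) and I at 7656749 to 7660727 (127). The site on I at 7656749 was 3 sites in replicate 1 and 2 in replicate 2, and in each list 1 of them carried most of the strength, with 36.4 in replicate 1 and 44.3 in replicate 2. These 10 ran from 2074 to 12525 bp in width.

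The weakest for their width were in no replicate list. The 5 lowest values lay on III at 3619668 to 3621986 (2319 bp, 1.82 per kb), II at 9490166 to 9491950 (1785 bp, 2.13 per kb), III at 8124275 to 8125936 (1662 bp, 2.17 per kb), V at 12037764 to 12039250 (1487 bp, 2.58 per kb) and X at 3818537 to 3819937 (1401 bp, 2.62 per kb). Their strengths ran from 3.60 to 4.22, near the lowest value in the list, and neither replicate had a site at any of them. The strongest broad sites in neither list were elsewhere. After the site on IV at 9067439, with 70.8, they lay on I at 14947100 to 14948949 (14.9), IV at 10331815 to 10333265 (14.4), IV at 13015839 to 13017098 (13.9), IV at 10479972 to 10481085 (13.8), IV at 291858 to 293634 (11.8), IV at 8111987 to 8113435 (10.7), I at 2628177 to 2629545 (9.99), I at 1692620 to 1693624 (9.93) and I at 9852113 to 9853194 (9.74). All 10 were on chromosome I or IV, which held 13 of the 50 broad sites in neither list (26.0%, 14.6 to 40.3). The 10 were chosen by strength, which was higher on I and IV. With a lower limit of strength just below these 10, I and IV held 12 of the 25 broad sites in 1 replicate and 106 of the 312 in both.

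**Figure D4:**
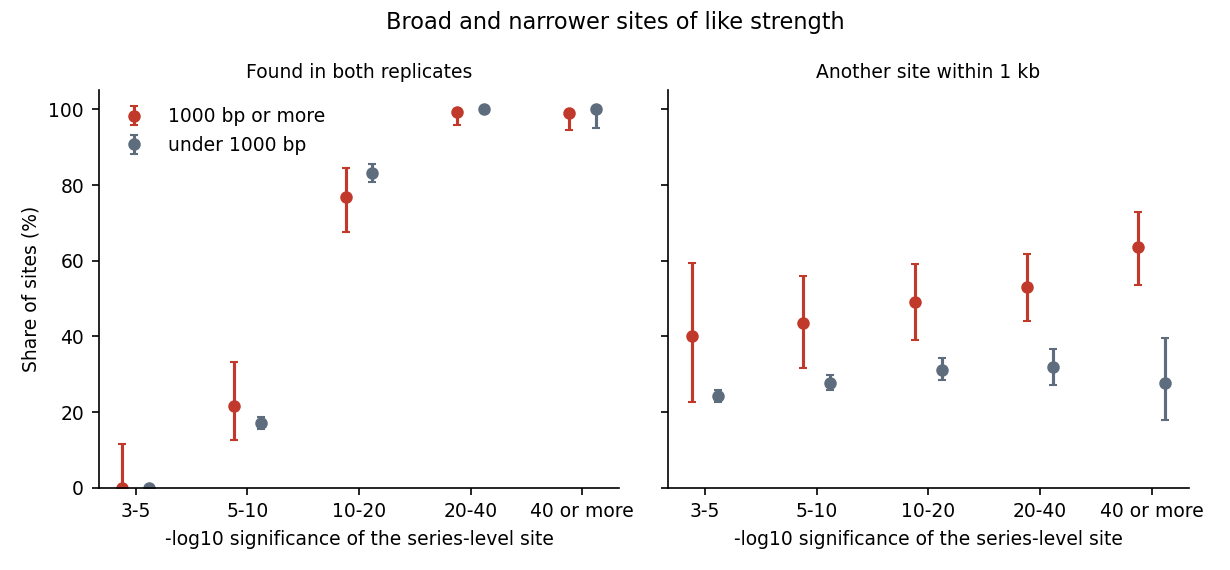
Share of sites found in both replicates (left) and with another series-level site within 1 kb (right), in %, by series-level −log10 significance, for sites of 1000 bp or more (red) and under 1000 bp (grey), with exact 95% intervals as bars. The share found in both differs little at like strength, but below 5 and from 20 up no or nearly all sites of either kind are in both. The share with a near neighbour is higher in broad sites in every class, with intervals that overlap in the weakest class alone.

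Broad sites were spread over all 6 chromosomes. Chromosome I held 70 of them (16.1%, 12.8 to 19.9), II held 74 (17.01%, 13.6 to 20.9), III held 77 (17.7%, 14.2 to 21.6), IV held 62 (14.3%, 11.1 to 17.9), V held 65 (14.9%, 11.7 to 18.6) and X held 87 (20.0%, 16.3 to 24.1). Sites under 1000 bp were placed otherwise, with 20.3% on I, 14.0% on II, 11.4% on III, 25.3% on IV, 14.3% on V and 14.8% on X. Chromosomes I and IV together held 30.3% of the broad sites (26.1 to 34.9) and 45.6% of the narrower ones (44.3 to 46.8). Among sites found in both replicates these shares were 32.6% of the broad (27.5 to 38.0) and 39.4% of the narrower ones (37.0 to 41.7). In replicate 1's own list they were 27.6% of its broad sites (21.4 to 34.5) and 39.7% of its narrower ones. In replicate 2's they were 27.1% (21.1 to 33.9) and 38.4%. The share on I and IV was thus lower in broad than in narrower sites in all 3 lists. Among sites in both replicates the series-level intervals overlapped. Of the summed span of the chromosomes up to their last listed sites, I made up 15.0% and IV 17.5%. In the series-level list the narrower sites exceeded these shares, with 20.3% on I and 25.3% on IV. The broad sites lay nearer to them, with 16.1% and 14.3%.

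Series-level strengths were higher on I and IV, in broad and in narrower sites. In broad sites the median was 35.1 on IV and 26.4 on I, compared with 18.5 on X, 18.2 on II, 18.2 on III and 14.0 on V. Among broad sites found in both replicates it was 39.0 on IV and 33.8 on I, and between 22.0 (V) and 27.7 (II) on the other chromosomes. In sites under 1000 bp the median was 5.97 on IV and 6.27 on I, against 5.12 (V) to 5.58 (III) elsewhere, and among those found in both it was 17.7 on IV and 16.4 on I, against 11.7 (X) to 12.8 (III). The replicates' own values at the broad sites found in both were closer together. The median of the strongest overlapping site lay between 10.1 (V) and 12.2 (I) in replicate 1 and between 9.19 (V) and 11.9 (X) in replicate 2. On IV the median was 12.1 in replicate 1 and 11.7 in replicate 2.

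On the autosomes together, the share of sites in the chromosome centres was higher in broad than in narrower sites in all 3 lists. The order of the classes differed between chromosomes. The centre was taken as the central 33.3% of the span from a chromosome's first base to its last listed site. It held 173 of the 348 autosomal broad sites (49.7%, 44.3 to 55.1) and 43.3% of the 5419 narrower ones (42.0 to 44.7). In the replicates' own lists the shares were 52.3% of broad (44.1 to 60.3) and 44.4% of narrower sites (42.2 to 46.6) in replicate 1, and 49.7% (41.6 to 57.8) and 45.5% (43.4 to 47.6) in replicate 2. The intervals of the classes overlapped in all 3 lists, which does not show that the shares are equal, and the difference was not tested. By chromosome, the central share was 62.2% of broad (50.1 to 73.2) and 47.6% of narrower sites (44.3 to 51.0) on II, 58.5% (45.6 to 70.6) and 46.9% (43.6 to 50.2) on V, and 51.4% (39.2 to 63.6) and 41.2% (38.5 to 44.0) on I. It was lower in broad sites on the other autosomes, with 38.7% of broad (26.6 to 51.9) and 40.2% of narrower sites (37.8 to 42.6) on IV, and 37.7% (26.9 to 49.4) and 44.5% (40.8 to 48.2) on III. The intervals of the classes overlapped on each autosome. On II the left 33.3% of the span held 6 of the 74 broad sites (8.11%, 3.03 to 16.8) and 19.8% of the narrower ones (17.2 to 22.6). This was the lowest share of broad sites at the left or right of any chromosome. The next was 13.8% at the right of V, and the highest was 36.4% at the right of III. On X the centre held 36 of 87 broad sites (41.4%, 30.9 to 52.4) and 31.7% of narrower ones (28.8 to 34.8), and 35.0% (23.1 to 48.4) and 31.0% of those found in both replicates. By number of broad sites, the fullest stretch of 1 Mb was on II from 6000001 to 7000000, where 13 of 92 sites were broad (14.1%). It was not the highest by share, since 9 of 58 sites (15.5%) were broad on III from 9000001 to 10000000.

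**Figure D5:**
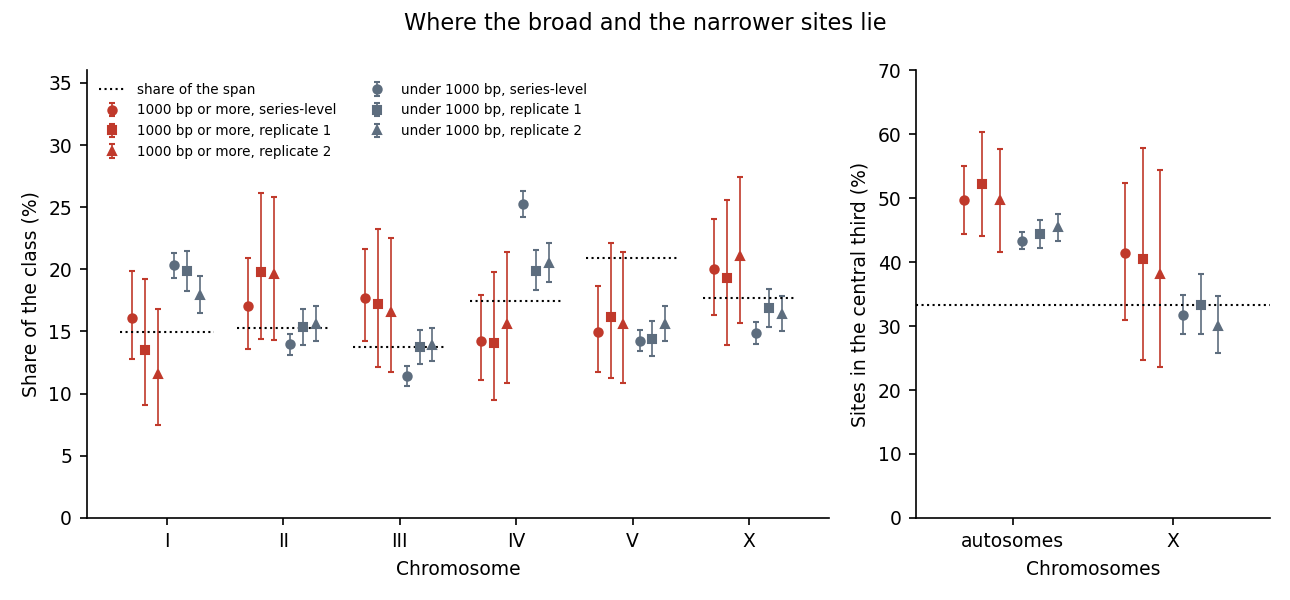
Share of the broad (red) and of the narrower sites (grey) that lies on each chromosome (left, %) and in the central 33.3% of the autosomes and of X (right, %), in the series-level list (circles) and in the lists of replicate 1 (squares) and replicate 2 (triangles), with exact 95% intervals as bars. Dotted lines mark the share of the span. Broad sites take a lower share on I and IV than narrower sites in each list. The central share of the autosomes is higher in broad sites in each list, with intervals that overlap.

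Broad sites had close neighbours more often than narrower sites. The gap from the edge of a broad site to the nearest other series-level site had a median of 895 bp (723 to 1107), against 2562.5 bp (2451 to 2721) for narrower sites. Another site lay within 1 kb of 227 broad sites (52.2%, 47.4 to 57.0) and of 27.1% of narrower sites (26.0 to 28.2). Within 5 kb there was one for 364 broad sites (83.7%, 79.9 to 87.0) and for 66.1% of narrower ones (64.9 to 67.3). The share was also higher in broad sites at like strength, although the intervals overlapped in the weakest class. At strengths from 3 to under 5, 12 of 30 broad sites (22.7% to 59.4%) and 24.2% of narrower ones (22.6 to 25.9) had a site within 1 kb, and from 5 to under 10 it was 43.5% (31.6 to 56.0) and 27.8% (26.0 to 29.7). From 10 to under 20, 49.0% of broad sites (39.1 to 59.0) and 31.3% of narrower ones (28.4 to 34.2) did, from 20 to under 40 it was 53.1% (44.1 to 61.9) and 31.9% (27.2 to 36.8), and at 40 and above it was 63.7% (53.6 to 73.0) and 27.8% (17.9 to 39.6). In the replicates' own lists a site lay within 1 kb of 39.1% of broad and 13.0% of narrower sites in replicate 1, and of 41.2% of broad and 14.1% of narrower sites in replicate 2. By chromosome the share of broad sites with a site within 1 kb ran from 33.3% on X to 71.4% on I. In narrower sites it ran from 19.9% on X to 37.0% on IV, with 28.5% on I.

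Neighbours of broad sites were often broad as well. Another broad site lay within 5 kb of 153 broad sites (35.2%, 30.7 to 39.9), and a broad site lay within 5 kb of 9.54% of narrower sites (8.83 to 10.3). In 76 cases 2 broad sites followed each other with no other site between them, and in 36 of these the gap was 1 kb or less. The 5 closest pairs were on X, with a gap of 207 bp between the sites at 11471339 to 11472666 and 11472874 to 11476294, on V, with gaps of 211 and 213 bp on either side of the site at 5843285 to 5845071, on II, with 226 bp between 11617459 to 11618823 and 11619050 to 11620856, and again on V, with 227 bp between 10721435 to 10724288 and 10724516 to 10725825. The smallest gap anywhere in the series-level list was 201 bp. In the closest pair on X, the strengths were 20.8 for the narrower site of the pair and 21.0 for the wider, and both replicates held sites at each. In the pair on V at 10721435, the first site had a strength of 25.7 and was in both replicates, and the second had 4.71 and was in neither.

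Runs of sites with gaps of at most 1 kb joined 86 of the broad sites into 37 groups of 2 or more broad sites each. The group with the most broad sites, on V from 5838719 to 5848844, held 4 of them among 5 sites and was 78.8% covered by listed sites. The strongest of the 4, at 5843285, had a strength of 44.0 in the series-level list, 21.9 in replicate 1 and 18.5 in replicate 2. The one before it, at 5840580 to 5843071, was 2492 bp wide but had 7.37, and replicate 2 had no site there. The widest site of all also stood in such a run, on II from 10541878 to 10560355. The sites that followed it, at 10554636 to 10557667 and 10558282 to 10560355, were 3032 and 2074 bp wide with strengths of 36.1 and 36.5, and each was a single site in both replicates. At the other end, 208 broad sites had no other site within 1 kb. The most isolated, on V at 8119 to 9328, was 1210 bp wide with a strength of 19.9, was 1 site in each replicate, and lay 95158 bp from the next site. It was the first listed site of V, near the chromosome's end, so its gap was measured on 1 side only.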

How the data were processed

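The authors deposited 3 lists of sites, for replicate 1, for replicate 2 and for the series, called with PeakSeq per their source column and placed on build WS220 per the file headers. For the aligner, the version and settings of PeakSeq and the combining of replicates, the answer is not given in the sources used here. Beside its coordinates a site has 1 unnamed value, taken here to be a deposited p-value or q-value, since all values lie above 0 and at or below 0.000998522. Its −log10 was computed here and used only within a list. The files hold no read counts, so depth is unknown.

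Width is end minus start plus 1. Overlap needed 1 bp, and gaps run from edge to edge. Intervals are 95% exact Clopper-Pearson intervals for shares and binomial rank intervals for medians. Named sites are the 10 widest, the 10 strongest, the 10 strongest in neither replicate, the 5 with most pieces, the 5 highest and 5 lowest per kb, the 5 closest pairs and 3 on each side of 1000 bp. Sites that share no base, the sites of a run, the most isolated site and the fullest stretch were added after their values were seen. The members and comparisons were chosen with earlier results of these data known. No test was run, since width and all other values come from the same libraries. Functions were tested on simulated data. Python 3.11.15, NumPy 2.4.6, pandas 2.3.3, SciPy 1.17.1 and Matplotlib 3.10.9 were used.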

Additional observations from a re-analysis of the deposited data

How the results depend on the processing

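Of 61 results recomputed under an alternative, 30 stayed within the interval or within 1.5 times the count given in the report and 31 moved. With a limit of 1500 bp there were 179 broad sites, of which 87.2% were found in both replicates and 33.97% of those were split, and 60.3% of replicate 1's were as wide in replicate 2. With 2000 bp there were 89, with 95.5% in both, 50.6% split and a median of 63.4% of the width covered by both. In the upper 50% of every list by significance, 66.3% were in both, 10.6% were split, 41.2% of the width was covered by both and 71.6% had a site within 5 kb. With 50% of the width required in each replicate, 52.4% were in both. With sites found in both alone, the median covered by both was 65.3% and the strength 18.0 per kb. Without chromosomes I and IV the strength was 10.9 per kb. Over all 435 broad sites, undivided by width, it was 21.2. A neighbour lay within 2 kb of 70.3% and within 10 kb of 92.0%.

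With 1 replicate left out, the number of broad sites was 192 to 199 (the other replicate's own list), the share found 80.9% to 82.3%, the share split 11.9% to 12.8%, the covered width 67.0% to 69.5%, the strength 8.78 to 8.999 per kb and the share with a site within 5 kb 67.2% to 69.8%. Requiring 1 list in place of 2 raises the share found and lowers the share split by construction. The shares on I and IV and in the autosomal centres stayed within their intervals under every alternative run. No paired analysis was possible because the input libraries have no list among the files analysed. Depth is unknown, so a site missing from a replicate cannot be told apart from one too shallow to be listed.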

Other observations

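The numbers in the site names run to 6839 in the series-level list, 2616 in replicate 1 and 2843 in replicate 2, of which 40, 4 and 9 are not among the listed sites. Among the narrower sites, 12 held a replicate site of 1000 bp or more, 3 in replicate 1 and 9 in replicate 2, and all sites of 1000 bp or more in a replicate list lay in some series-level site.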
